A study of Danio rerio with 6 samples.

Results

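Ventricular cells of cloche heterozygous zebrafish 7 days post amputation (dpa) were compared with those of the same genotype at 3 dpa, in 1 pooled library each. Cells were the barcodes with at least 500 unique molecular identifiers (UMIs, single captured transcripts), at least 200 genes and at most 30% of UMIs from mitochondrial (mt-) genes. These filters kept 14122 of 14816 barcodes at 7 dpa and 8994 of 9700 at 3 dpa, together 23116 of the 65399 cells kept in the 6 libraries of the study.

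The study took wild type (WT) and clofv087b/+ adult zebrafish at sham, 3 dpa and 7 dpa and made 1 droplet library of 3' transcript ends per combination. Both groups compared here carried the clofv087b allele in 1 copy (het) and had the heart amputated, with 7 days of healing in the one and 3 days in the other. WT hearts at 7 and 3 dpa are given beside them as values only, since the genotypes were not compared by a test. Each library pooled 15 ventricles that had been digested for 3 h at 4 °C and sorted on a Hoechst DNA signal, and about 12000 cells at more than 85% viability were loaded. The pooling leaves 1 sample per group, so intervals below are exact 95% intervals of counting error and carry no spread between animals or libraries.

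Zebrafish regrow ventricular muscle after amputation. Debris is cleared by macrophages, the epicardium and fibroblasts lay down a provisional matrix, the endothelium revascularises the wound, and spared cardiomyocytes dedifferentiate and divide. The cloche locus encodes Npas4l, a transcription factor at the head of blood and endothelial specification in the embryo. The npas4l transcript gave 54 UMIs at 7 dpa and 42 at 3 dpa in het cells, which is 0.467 and 0.674 CPM (UMIs of a gene per 1000000 UMIs of the cells summed), at a ratio of 0.693 with an interval of 0.454 to 1.06.

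The kept het cells held 115616806 UMIs at 7 dpa and 62308341 at 3 dpa, with medians of 4054 and 4167.5 UMIs and 1112 and 1182 genes per cell. The median mitochondrial share was 5.15% at 7 dpa and 9.04% at 3 dpa, and 661 and 690 barcodes were dropped on that limit. A total of 36 kept barcodes occurred in both libraries. The barcodes with the highest Scrublet scores were marked as likely doublets, 1756 (11.9%) at 7 dpa and 753 (7.76%) at 3 dpa. These numbers were set by an assumed rate of 0.8% per 1000 barcodes and are not measured doublet rates. Leaving the marked barcodes out moved none of the class shares or counts of genes by more than the limits set. In the 3 dpa het library some genes stood more than 2-fold below all 5 other libraries of the study, sham included, and they appear as higher at 7 dpa. Of the genes at least 2-fold higher in all cells, 14 of 197 (7.11%) were of this kind, and 0 of the 146 lower ones. NDUFB1, a subunit of respiratory complex I, stood at 52.7 CPM at 7 dpa and 1.56 CPM at 3 dpa, while the other 5 libraries lay between 20.1 and 55.2 CPM. The ribosomal protein gene rps29 stood at 4674 CPM at 7 dpa and 1042 CPM at 3 dpa (other 5 libraries, 2587 to 5064), and rpl38 at 3263 and 833 CPM (1920 to 3772). Of 67 ribosomal protein genes 8 were at least 2-fold higher in all cells of het and 0 in WT. Also of this kind were fkbp3, mhc1uka, myl9a, ccl34b.8, crema, ndufv2, micos13 and mt-co1. The part of that library in these genes was not tested.

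Cells were put into 11 classes by the share of their UMIs that came from sets of marker genes, the share and at least 2 marker genes being required. They are called cardiomyocyte-like and so on, and the markers themselves are not results. No class was reached by 3402 cells (24.1%) at 7 dpa and 2308 (25.7%) at 3 dpa, with medians of 1353 and 825 UMIs, and 463 and 156 cells passed for more than 1 class. Cardiomyocyte-like cells were 3007 of the cells at 7 dpa (21.3%, interval 20.6 to 22.0) and 3020 at 3 dpa (33.6%, 32.6 to 34.6), a ratio of 0.634 (0.603 to 0.667). In WT the shares were 27.0% at 7 dpa and 35.4% at 3 dpa. Endothelial-like cells, which line the vessels and the ventricular lumen, were 1254 (8.88%, 8.42 to 9.36) at 7 dpa and 360 (4.00%, 3.61 to 4.43) at 3 dpa, a ratio of 2.22 (1.97 to 2.5). Epicardial and fibroblast-like cells made up 13.9% (1964 cells) at 7 dpa and 9.09% (818 cells) at 3 dpa, and mural-like cells, the contractile support of vessels, 1.92% (271) and 0.834% (75). The vascular and mesenchymal classes thus held a larger part of the cells at 7 dpa, while the cardiomyocyte-like class held a smaller one.

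Macrophage-like cells were 20.2% (2852 cells) at 7 dpa and 20.3% (1828 cells) at 3 dpa, a ratio of 0.994 with an interval of 0.937 to 1.05. Thrombocyte-like cells, the nucleated counterparts of platelets, were 3.07% (433) at 7 dpa and 0.990% (89) at 3 dpa, a ratio of 3.1 (2.46 to 3.94). Unclassed cells from 0.8 times the thrombocyte limit up to it numbered 39 at 7 dpa and 75 at 3 dpa, and counting them in brought the ratio to 1.83 (1.53 to 2.2). Of these, 15 and 0 cells had the 2 marker genes required, and with them alone it was 3.21 (2.55 to 4.07). Among rare lymphocytes the ratios were 5.38 (2.87 to 11.2) for B-like cells, 93 at 7 dpa and 11 at 3 dpa, and 5.10 (2.32 to 13.3) for T and NK-like cells, 56 and 7. With unclassed cells down to 0.8 times the limit these ratios were 3.05 (1.95 to 4.96) and 2.91 (1.68 to 5.35). In WT the ratio was 0.891 (0.576 to 1.39) for B-like and 2.25 (1.18 to 4.57) for T and NK-like cells. Neutrophil-like cells, 44 at 7 dpa and 35 at 3 dpa, had an interval from 0.502 to 1.29, and a glial-like class held 28 cells and 1 cell. Erythrocyte-like cells were 1.81% (255) at 7 dpa and 3.18% (286) at 3 dpa, but this direction turned round when only cells with at least 1000 UMIs were counted (log2 ratio of shares 0.56, against -0.82 in all kept cells). Their median depth was 1373 UMIs at 7 dpa and 695 at 3 dpa. All shares are parts of a whole after dissociation and a sort, so a larger share of one class lowers the others. Within 1.25 times of a class limit lay 323 of the cardiomyocyte-like cells at 7 dpa and 343 at 3 dpa, 103 and 14 of the endothelial-like, 117 and 53 of the epicardial and fibroblast-like, and 469 and 385 of the macrophage-like cells.

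**Figure D1:**
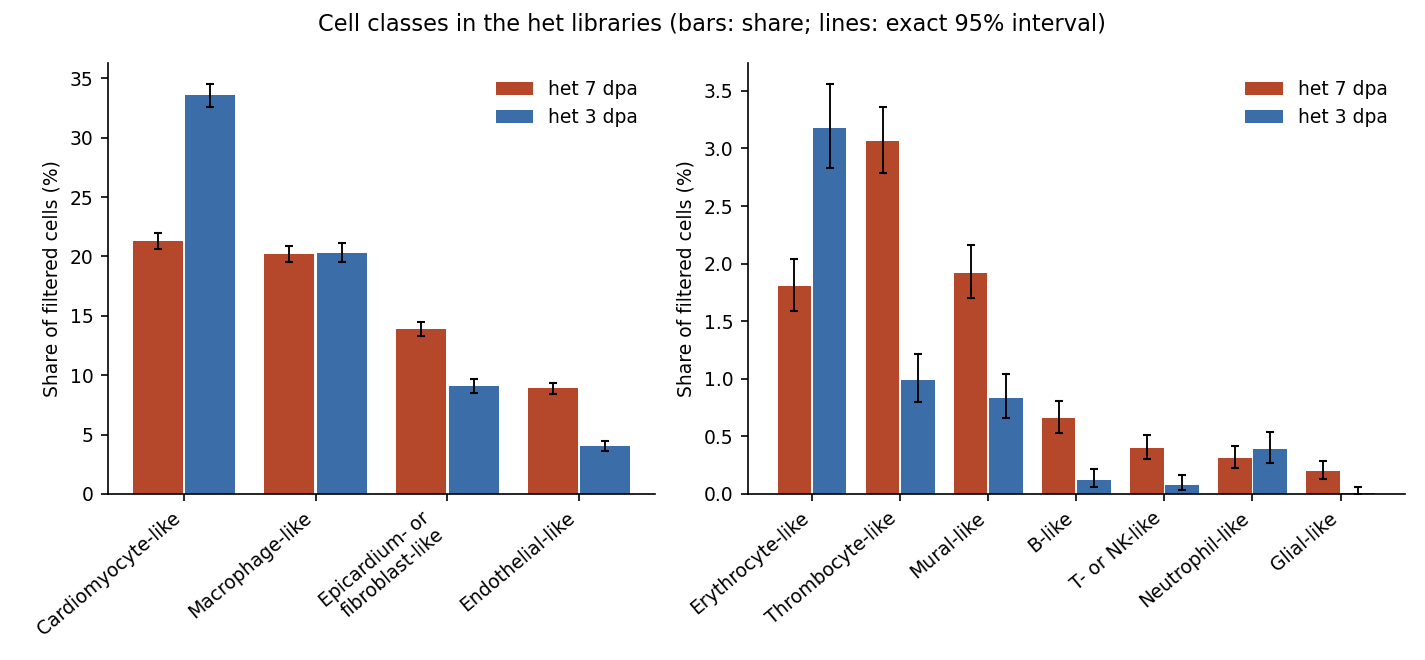
Share of kept cells (%) in each marker class in het ventricles at 7 dpa (left bar of each pair) and 3 dpa (right bar), with exact 95% intervals of counting error, large classes in the first panel and small ones in the second. Cardiomyocyte-like cells were 21.3% at 7 dpa and 33.6% at 3 dpa, and endothelial-like cells 8.88% and 4.00%.

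Transcripts of other classes were found at low level within each class. Cardiomyocyte markers made up a median of 0.626% of UMIs in endothelial-like cells at 7 dpa and 0.827% at 3 dpa, 0.301% and 0.264% in macrophage-like cells, 0.376% and 0.224% in epicardial and fibroblast-like cells, and 1.24% and 2.38% in erythrocyte-like cells. In the cardiomyocyte-like class itself the medians were 11.2% and 11.9%. Macrophage markers had medians of 0.034% and 0.056% in endothelial-like cells, and 1.29% and 1.21% in macrophage-like cells. Erythrocyte-like cells, which should lack most of the genes below, are used as the measure of such background.

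Cells with transcripts of the division cycle were fewer at 7 dpa in the epicardial and fibroblast-like and macrophage-like classes. Genes of DNA replication and mitosis are transcribed in S phase and from G2 to M phase, so their UMIs mark cycling cells. Every cell with at least 1000 UMIs was thinned to 1000, to put both days at 1 depth, and shallower cells were left out, 117 epicardial and fibroblast-like cells at 7 dpa and 40 at 3 dpa, 375 and 218 macrophage-like, 99 and 33 thrombocyte-like, and 96 and 224 erythrocyte-like cells. In this way 32 of 1847 epicardial and fibroblast-like cells (1.73%, interval 1.19 to 2.44) held at least 2 UMIs of these genes at 7 dpa, against 190 of 778 (24.4%, 21.4 to 27.6) at 3 dpa. The ratio was 0.0709 (0.0472 to 0.104), and the unthinned shares were 17.3% and 48.9%. Macrophage-like cells had 201 of 2477 (8.11%, 7.07 to 9.26) at 7 dpa and 283 of 1610 (17.6%, 15.7 to 19.5) at 3 dpa, a ratio of 0.462 (0.383 to 0.555), with 32.0% and 42.3% unthinned. The WT shares were 2.57% at 7 dpa and 26.4% at 3 dpa in epicardial and fibroblast-like cells, and 7.64% and 24.4% in macrophage-like cells.

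In the other classes the intervals at 7 and 3 dpa overlapped. Cardiomyocyte-like cells had 37 of 2754 (1.34%, 0.948 to 1.85) at 7 dpa and 23 of 2621 (0.878%, 0.557 to 1.31) at 3 dpa, and endothelial-like cells 28 of 1126 (2.49%) and 8 of 323 (2.48%), where the interval of the ratio, 0.446 to 2.55, leaves room for a difference of either sign. Mural-like cells had 8 of 230 (3.48%) and 5 of 69 (7.25%), and thrombocyte-like cells 15 of 334 (4.49%) and 7 of 56 (12.5%), with an interval of the ratio from 0.138 to 1.04. Background in erythrocyte-like cells was 2 of 159 (1.26%) at 7 dpa and 0 of 62 at 3 dpa, which allows a share of up to 4.84% (3 cells of 62; the exact interval reaches 5.78%). The value at 3 dpa rests on 62 of 286 erythrocyte-like cells. The cardiomyocyte-like shares lay within those limits after thinning. Without thinning they were 27.7% at 7 dpa and 22.0% at 3 dpa, against 3.14% and 1.75% in the shallower erythrocyte-like cells. So few erythrocyte-like cells cannot show that a share equals background, and this was not tested. At 7 dpa the background interval reached 4.47%, which also took in the epicardial and fibroblast-like (1.73%), endothelial-like (2.49%) and mural-like (3.48%) shares. The endothelial-like share at 3 dpa (2.48%) lay under the limit of that day. The ratio of 0.0709 in epicardial and fibroblast-like cells thus rests on a 7 dpa share within the background interval.

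**Figure D2:**
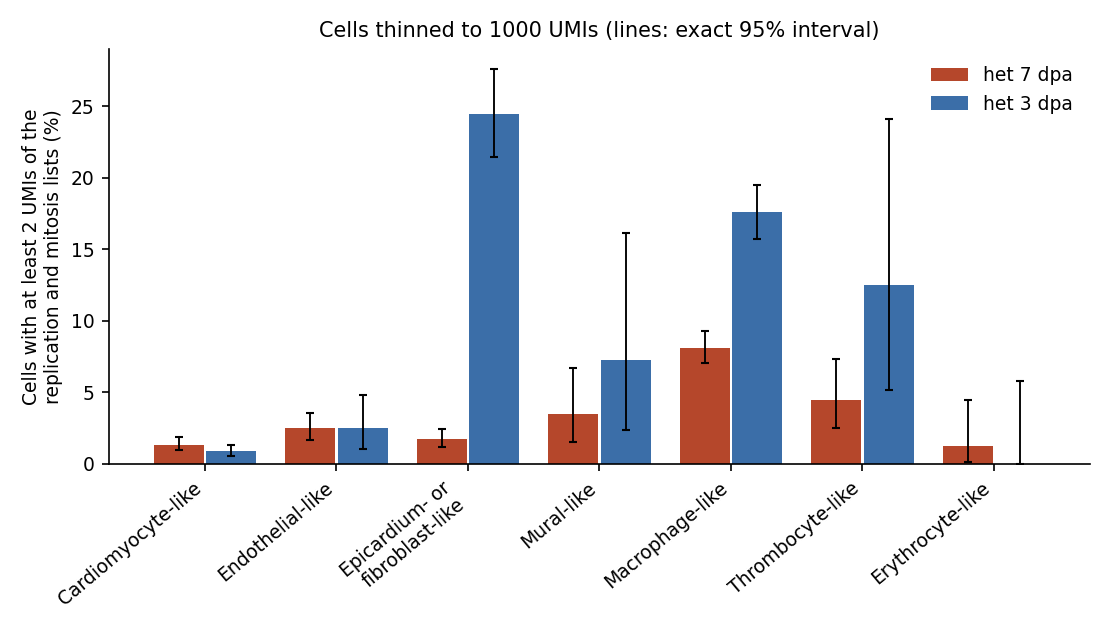
Share of cells (%) with at least 2 UMIs of DNA replication and mitosis genes after thinning each cell to 1000 UMIs, by class, het 7 dpa left of het 3 dpa, with exact 95% intervals of counting error. Epicardial and fibroblast-like cells stood at 1.73% at 7 dpa and 24.4% at 3 dpa, and macrophage-like cells at 8.11% and 17.6%.

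Genes were first compared over the sum of all cells, where fewer cells of a type and less RNA per cell cannot be told apart. The log2 ratio of 7 dpa over 3 dpa was taken after adding 10 CPM to both, which understates the change of low genes. On that scale 2-fold is the limit used for every count of higher or lower genes. Measured genes had at least 50 UMIs in either library and a UMI in at least 20 cells of the library where they were higher. Of 15596 such genes, 197 were at least 2-fold higher at 7 dpa (1.26%) and 146 at least 2-fold lower (0.936%). The 3 dpa sums were smaller in all cells and in every class below, so genes high at 3 dpa reached 50 UMIs less readily. That leans counts of genes and of list members to the higher side, most in the small classes. Under edgeR's TMM scaling (trimmed mean), 68.8% of the calls were higher ones, against 57.4% on the CPM scale. That scaling raised log2 ratios by 0.12 in all cells and by 0.21 in endothelial-like, 0.24 in epicardial and fibroblast-like, 0.33 in mural-like, 0.29 in thrombocyte-like and 0.55 in erythrocyte-like cells, and by less than 0.1 in the other classes. Of the CPM calls, 79 of the higher genes were also 2-fold higher at 7 dpa in WT, which is 40.1% of the het list and 54.9% of the 144 genes of the WT list. Of the lower genes 97 were shared, 66.4% of the het list and 50.8% of the 191 genes of the WT list.

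The gene with the largest ratio in all cells was f13a1a.1, a gene for the A chain of coagulation factor XIII, which cross-links fibrin. It stood at 376 CPM at 7 dpa and 0.594 CPM at 3 dpa, a ratio of 633 (460 to 900), and at 155 CPM in the het sham library. WT had 346 CPM at 7 dpa, 0.495 CPM at 3 dpa and 27 CPM at sham. Skeletal alpha actin acta1a stood at 387 CPM at 7 dpa and 35.3 CPM at 3 dpa, a ratio of 10.9 (10.5 to 11.4; WT 507 and 56.8 CPM). The chemokine cxcl11.5 had 128 CPM at 7 dpa and 8.14 CPM at 3 dpa, a ratio of 15.7 (14.4 to 17.2; WT 27.3 and 12.2 CPM). The alcohol dehydrogenase adh8a had 120 and 7.56 CPM (WT 76.6 and 6.13), and dap1b, related to death-associated protein 1, had 234 and 22.2 CPM (WT 132 and 40.4). The remaining 5 of the 10 highest were the genes low in the 3 dpa het library alone: ccl34b.8, fkbp3, myl9a, NDUFB1 and mhc1uka.

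The 10 lowest genes at 7 dpa were lower in WT as well. The granulin gene grn1 stood at 2442 CPM at 7 dpa and 11432 CPM at 3 dpa, a ratio of 0.214 (0.213 to 0.215), against 2102 and 6055 CPM in WT. Fibronectin fn1a, the adhesive glycoprotein of provisional matrix, had 102 CPM at 7 dpa and 531 CPM at 3 dpa (WT 91.1 and 537). The metalloproteinase inhibitor timp2b had 42.9 and 320 CPM (WT 37.1 and 238), collagen XII col12a1b 16.9 and 100.1 CPM (WT 15.5 and 124), and the chromatin protein hmgb3a 28.1 and 178 CPM (WT 26.2 and 182). The others were ckba, a creatine kinase, tcnbb, a vitamin B12 carrier, the galectin-binding lgals3bpb, pglyrp5, a peptidoglycan receptor of innate immunity, and fkbp9. Their ratios lay between 0.101 for pglyrp5 and 0.184 for lgals3bpb.

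**Figure D3:**
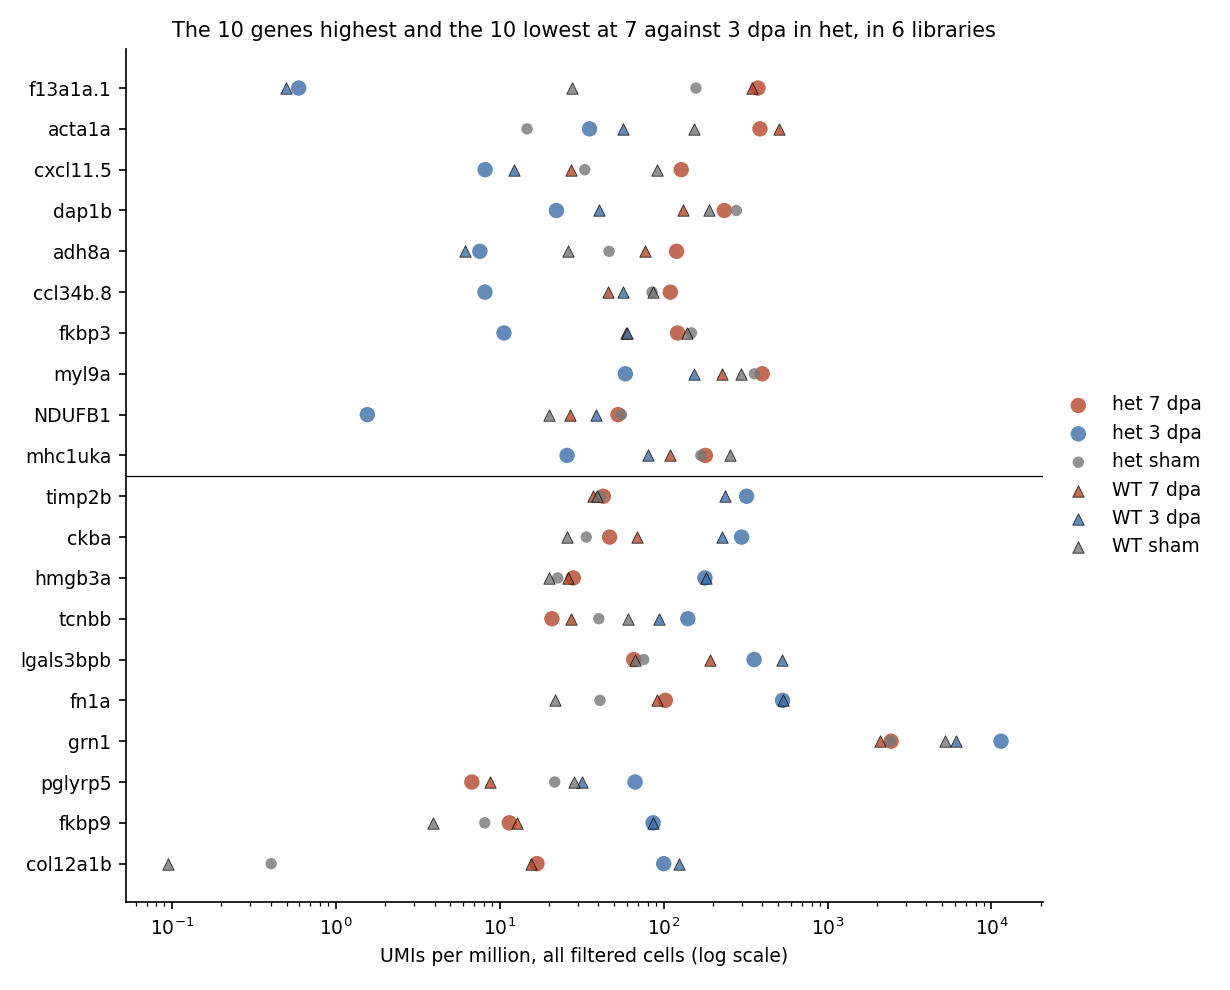
Level in CPM (log axis) over all cells of the 10 genes highest (above the line) and the 10 lowest (below it) at 7 dpa over 3 dpa in het, in each of the 6 libraries (circles het, triangles WT, red 7 dpa, blue 3 dpa, grey sham). The lower genes lie left at 7 dpa in both genotypes, and NDUFB1 lies at 1.56 CPM in the 3 dpa het library alone.

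In cardiomyocyte-like cells acta1a, atf3 and nr4a3 were among the highest genes at 7 dpa, and hmgb3a, alas1 and myh6 among the lowest. Of 11190 genes measured, 168 were at least 2-fold higher (1.5%) and 65 at least 2-fold lower (0.581%). The median depth of these cells was 16565 UMIs at 7 dpa and 9711.5 at 3 dpa, and their median mitochondrial share 6.91% and 10.4%. Actin acta1a had 802 CPM at 7 dpa and 69.4 CPM at 3 dpa, a ratio of 11.6 (WT 948 and 99.6). Titin cap tcap, which anchors titin at the Z disc, had 407 and 108 CPM, and the Xin actin-binding repeat genes xirp1 and xirp2a, whose proteins sit at intercalated discs, had 1337 and 272 CPM and 327 and 123 CPM. The small heat shock protein gene hspb9 gave 3733 UMIs in 255 cells at 7 dpa and 12 UMIs in 7 cells at 3 dpa, a CPM ratio of 172 (98.5 to 334; WT 87.5 and 0.198 CPM), and a UMI in 2.72% and 0.0382% of thinned cells. Its relatives hspb8, with 346 and 71.8 CPM, and hspb11, with 4406 and 1237 CPM, were higher by more than 2-fold too. The inducible chaperone hsp70l stood lower, with 161 CPM at 7 dpa and 363 CPM at 3 dpa. Of 28 chaperone genes measured, 4 were at least 2-fold higher and 1 lower, with a median log2 ratio of 0.03 against -0.02 over all genes of the class.

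Stress-response transcription factors were among the higher genes. The activating factor atf3 had 1459 CPM at 7 dpa and 164 CPM at 3 dpa, a ratio of 8.90 (8.65 to 9.17; WT 1046 and 277), and the nuclear receptor nr4a3 had 191 and 12.7 CPM, a ratio of 15.0 (13.5 to 16.7; WT 198 and 18.2). Such immediate early genes also answer to dissociation, whose part was not tested. Of 33 immediate early genes measured, 5 were at least 2-fold higher and 1 lower (median 0.39), jund with 344 and 143 CPM and fosl2 with 61.2 and 12.7 CPM among them. The matricellular genes ccn1, with 556 and 230 CPM, and ccn2a, with 140 and 40.4 CPM, and the stress-induced cofactor ankrd1a, with 23.5 and 5.91 CPM, are known targets of YAP and were higher at 7 dpa. Tissue factor, which starts coagulation, was higher in both copies: f3b had 621 CPM at 7 dpa and 159 CPM at 3 dpa (WT 328 and 168), and f3a had 35.5 and 9.75 CPM.

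The natriuretic peptides moved less than 2-fold and in opposite directions, with nppa at 1643 CPM at 7 dpa and 3146 CPM at 3 dpa (log2 ratio -0.93) and nppb at 1567 and 1096 CPM (0.51). Among 33 sarcomere genes, 4 were at least 2-fold higher and 2 lower, with a median of 0.00 (0.09 under TMM). Several of these genes, such as myl7 and tnnt2a, are markers that define the class, so the class rule partly sets this median. The atrial myosin heavy chain myh6 had 111 CPM at 7 dpa and 567 CPM at 3 dpa, a ratio of 0.195 (0.189 to 0.201), against 284 and 301 CPM in WT. A UMI of myh6 was seen in 1.23% and 3.70% of thinned het cells, so few cells carried it. Another myosin heavy chain, myh7ba, had 218 and 828 CPM (WT 196 and 848), and the slow troponin C gene tnnc1b 24.7 and 71.6 CPM.

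None of the 3 metabolic lists had more than 1 gene at least 2-fold higher. Fatty acid oxidation had 0 genes higher and 3 lower of 24 measured (median -0.56), with acadvl, an acyl-CoA dehydrogenase of mitochondria, at 659 CPM at 7 dpa and 1493 CPM at 3 dpa and acsl1b, which activates fatty acids, at 387 and 897 CPM. Glycolysis had 0 higher and 4 lower of 32 (median -0.39), with gapdhs at 191 and 453 CPM, pyruvate kinase pkma at 479 and 988 CPM and the pyruvate dehydrogenase kinase pdk2a at 217 and 447 CPM. Oxidative phosphorylation had 1 higher and 1 lower of 47 (median -0.28). Lower too were alas1, the first enzyme of heme synthesis, with 217 and 1068 CPM (WT 268 and 721), the transferrin receptor tfr1b with 24.5 and 74.8 CPM, and ppargc1b, a coactivator of mitochondrial genes, with 48.9 and 112 CPM. The chromatin proteins hmgb3a, with 47.1 and 286 CPM, and hmgb1a, with 88.1 and 382 CPM, were lower in WT to a like level. The interferon mediator stat2 had 30.1 and 152 CPM (WT 59.5 and 246). The cardiac factor gata5, active again in the injured fish heart, had 23.8 and 63.5 CPM.

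In macrophage-like cells, 6 of 19 genes of antigen presentation and several Cxcl11 chemokines were at least 2-fold higher at 7 dpa, and fabp11a, fth1a, saa and hp were among the lowest genes. Of 10495 genes measured, 226 were at least 2-fold higher (2.15%) and 155 at least 2-fold lower (1.48%), and their median depths were alike, 6118.5 UMIs at 7 dpa and 6186 at 3 dpa. The invariant chain of MHC class II, which guides the peptide receptor, had 11287 CPM for cd74a at 7 dpa and 2505 CPM at 3 dpa, a ratio of 4.51 (4.45 to 4.56; WT 12257 and 2945), and 4515 and 1056 CPM for cd74b. On the class I side b2m, the common light chain, had 3880 and 1590 CPM, mhc1zba 1418 and 693 CPM, the immunoproteasome subunit psmb9a 140 and 54.1 CPM and the peptide transporter tap2a 64.6 and 26.1 CPM. In all, 6 of 19 genes of antigen presentation were at least 2-fold higher and 0 lower, with a median of 0.67 against -0.04 over all genes. The cd74a transcript gave 87.3 UMIs per macrophage-like cell at 7 dpa and 17.4 at 3 dpa, against 2.22 and 0.273 per erythrocyte-like cell.

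The chemokines of the Cxcl11 family, ligands of Cxcr3 receptors that draw macrophages and lymphocytes, were higher in several copies. cxcl11.5 had 534 CPM at 7 dpa and 23.9 CPM at 3 dpa, a ratio of 22.3 (19.9 to 25.1; WT 117 and 41.7), cxcl11.6 had 427 and 29.7 CPM (WT 166 and 56.5), and cxcl11.1 had 514 and 96.7 CPM (WT 179 and 74.3). cxcl11.8 had 138 CPM at 7 dpa and 0.393 CPM at 3 dpa (WT 35.5 and 9.75). These genes are close paralogs, so how the authors' counting split their reads is uncertain. cxcl20 had 190 and 8.81 CPM (WT 109 and 29.3), and ccl34b.8, 404 and 31.9 CPM, was low in the 3 dpa het library alone (WT 203 and 244).

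Interferon genes were mixed, with 5 of 23 at least 2-fold higher, 1 lower and a median of 0.05. Higher were gbp1, a guanylate-binding protein, with 650 CPM at 7 dpa and 145 CPM at 3 dpa, irf1b with 267 and 69.0 CPM, and the antiviral mxc with 286 and 87.2 CPM (WT 114 and 103). The ubiquitin-like isg15 had 170 and 379 CPM and was the lower one. The inflammatory cytokines il1b, with 442 and 838 CPM (log2 ratio -0.91), tnfa, with 16.1 and 17.0 CPM, and tnfb, with 482 and 456 CPM, stayed under 2-fold.

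Several genes of lipid handling were lower. The fatty acid-binding protein fabp11a had 177 CPM at 7 dpa and 1932 CPM at 3 dpa, a ratio of 0.0915 (0.0884 to 0.0946; WT 185 and 4701). Apolipoprotein E apoeb had 35.4 and 185 CPM, apoc1 39.8 and 137 CPM, and the lipid droplet coat plin2 37.7 and 163 CPM. The granulin genes followed, grn1 with 9016 and 42853 CPM and grn2 with 1470 and 4584 CPM. The grn1 transcript gave 69.8 UMIs per macrophage-like cell at 7 dpa and 298 at 3 dpa, against 2.41 and 4.09 per erythrocyte-like cell. Of 27 genes of lysosome and lipid handling, 0 were at least 2-fold higher and 6 lower (median -0.35).

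Among 14 genes of heme and iron, 1 was at least 2-fold higher and 3 lower (median -0.62). Ferritin heavy chain fth1a, which stores iron, had 609 CPM at 7 dpa and 6243 CPM at 3 dpa, a ratio of 0.0976 (WT 714 and 3793). It gave 4.71 UMIs per macrophage-like cell at 7 dpa and 43.4 at 3 dpa, against 6.78 and 2.29 per erythrocyte-like cell. Its 7 dpa level thus lay below that of erythrocyte-like cells, and how much of it is background was not tested. Hepcidin hamp, the hormone that shuts iron export, had 8.52 and 55.8 CPM. The iron exporter slc40a1 had 333 and 184 CPM (log2 ratio 0.83) and heme oxygenase hmox1a 1120 and 1681 CPM (-0.58), both within 2-fold. Haptoglobin hp, which binds free hemoglobin, had 28.5 and 187 CPM (WT 35.9 and 214), and the acute-phase saa 8.43 and 149 CPM (WT 5.80 and 99.8). pglyrp5 had 23.7 and 238 CPM, tcnbb 65.2 and 484 CPM, and the pro-resolving annexin anxa1a 163 and 844 CPM. Of 23 mitosis genes 11 were at least 2-fold lower and 0 higher (median -0.98). Of 20 DNA replication genes 0 passed 2-fold in either direction (median -0.50). The share of cycling cells was counted from these same genes, so it is not a separate result.

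The f13a1a.1 transcript came largely from few cells, 51 of them macrophage-like. At 7 dpa 43493 UMIs were counted and at 3 dpa 37. Only 84 of 14122 cells held at least 10 UMIs, and these gave 76.1% of all of them (WT at 7 dpa 58 cells, 77.8%). Of 2852 macrophage-like cells 51 (1.79%) gave 92.1% of the UMIs of the class, up to 2931 in 1 cell, and in WT 40 of 2303 gave 94.0%. Outside such cells the mean was 0.791 UMIs per macrophage-like cell, 0.676 per cardiomyocyte-like cell and 0.769 per erythrocyte-like cell, and 46.7% of erythrocyte-like cells held a UMI. That remaining level was thus that of background, and the ratios of other classes are not read. In the macrophage-like sum the level was 1274 CPM at 7 dpa and 1.57 CPM at 3 dpa, a ratio of 809 (524 to 1325; WT 1474 and 1.71). Chosen by that gene and so only described, the 51 cells had a median of 5513 UMIs and, against the other macrophage-like cells at 7 dpa, 845 against 0.971 CPM of the paralog F13A1 (1 of many), 1071 against 7.58 CPM of the chemokine ccl19a.1, 434 against 3.70 CPM of the carboxypeptidase cpn1, 323 against 1.53 CPM of the oestrogen receptor esr2a and 28246 against 8631 CPM of grn1.

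In epicardial and fibroblast-like cells most genes of DNA replication and mitosis measured were at least 2-fold lower at 7 dpa, and so were parts of the glycolysis, respiration and secretion lists. The periostins and parts of the complement and immediate early lists were higher. Of 10270 genes measured, 277 were at least 2-fold higher (2.7%) and 1115 at least 2-fold lower (10.9%). The cells were shallower at 7 dpa, with a median of 4711 UMIs against 7431 at 3 dpa. The median of all genes was -0.19 here, and under TMM the lower genes numbered 743 and 35.6% of calls were higher ones, against 19.9% on the CPM scale. Of the het calls 161 higher and 665 lower ones were shared with WT, 59.2% and 59.6% of the het lists and 58.3% and 85.0% of the WT lists.

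DNA replication genes were lower in 18 of 20 measured (median -2.10) and mitosis genes in 20 of 23 (median -1.89), with 0 higher in either list. The proliferation antigen mki67 had 3.86 CPM at 7 dpa and 107 CPM at 3 dpa, a ratio of 0.0361 (0.0271 to 0.0473; WT 2.81 and 99.5). The topoisomerase top2a had 3.03 and 85.3 CPM, the polymerase clamp pcna 24.4 and 245 CPM, the kinetochore gene cenpf 1.79 and 75.0 CPM, and the nuclear import factor kpna2 2.00 and 102 CPM. These cells also held less transcript of energy genes. Of 46 genes of oxidative phosphorylation 22 were at least 2-fold lower and 1 higher (median -0.95; 10 and 1 under TMM), and of 26 glycolytic genes 11 were lower and 0 higher (median -0.78), with enolase eno1a at 100.2 and 634 CPM, gapdhs at 302 and 1480 CPM and lactate dehydrogenase ldha at 76.4 and 353 CPM. Of 29 genes of protein folding and secretion 13 were lower and 0 higher (median -0.84). Among them calr3b, a calreticulin of the endoplasmic reticulum, had 127 and 494 CPM, the retrieval receptor kdelr2b 67.1 and 294 CPM, and ssr3, a part of the translocon, 292 and 909 CPM. The hydroxylase asph, with 33.9 and 376 CPM, was lower likewise.

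Matrix genes moved in both directions. Of 25 wound matrix genes 4 were at least 2-fold higher and 8 lower (median -0.21), and under TMM 5 and 5 (median 0.02). Lower were fibronectins fn1a, with 487 CPM at 7 dpa and 2216 CPM at 3 dpa, and fn1b, with 2818 and 5659 CPM (WT 2860 and 3587), tenascin tnc, with 12 and 67.7 CPM, and timp2b, with 95.1 and 968 CPM. Fibrillar collagen col11a1a had 16.6 and 178 CPM, col12a1b 108 and 515 CPM, and col5a1 1462 and 3731 CPM. Higher were the periostins, matricellular proteins of activated fibroblasts, with postna at 108 and 5.87 CPM, a ratio of 18.4 (14.2 to 24.4; WT 104 and 6.62), and postnb at 1223 and 325 CPM. Collagen VIII col8a1b had 42.8 and 5.56 CPM and the basement membrane collagen col4a1 493 and 211 CPM, while the main fibrillar chain col1a1a stayed level at 2239 and 2356 CPM. The proteases mmp2, with 568 and 263 CPM, and mmp14b, which activates it, with 168 and 78.4 CPM, were higher.

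Secreted factors moved in both directions. Retinaldehyde dehydrogenase aldh1a2, which makes retinoic acid in activated epicardium, had 290 CPM at 7 dpa and 603 CPM at 3 dpa, a ratio of 0.481 (WT 305 and 692), and the chemokine cxcl12a, a guide of migrating cells, had 177 and 501 CPM. The heparin-binding midkine mdkb had 283 and 54.5 CPM and bmp6 43.8 and 2.22 CPM, while mdka had 4090 and 5814 CPM. Of 25 regeneration factors 2 were at least 2-fold higher and 1 lower (median 0.20). Of 10 complement genes 4 were higher and 0 lower (median 0.81), with cfd, the factor D protease, at 718 and 142 CPM, c4 at 1106 and 438 CPM and c4b at 771 and 273 CPM. Of 24 coagulation genes 5 were higher and 0 lower (median 0.52), with f10 at 283 and 73.6 CPM and its inhibitor tfpia at 227 and 80.8 CPM. The 5 include f13a1a.1, whose ratio in this class is not read, as said above.

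The highest gene of the class was g0s2, an inhibitor of fat breakdown, with 487 CPM at 7 dpa and 2.73 CPM at 3 dpa, a ratio of 178 (122 to 271), against 897 and 213 CPM in WT. A UMI of it was seen in 2.00% and 0.386% of thinned cells. The retinol-binding rbp2a had 225 and 5.26 CPM (WT 339 and 75.7), with a UMI in 2.27% and 0.257% of thinned cells. Few cells thus carried g0s2 or rbp2a. The gene adh8a had 692 and 44.0 CPM (WT 530 and 33.7), and dap1b 542 and 27.5 CPM (WT 308 and 49.4). Of 33 immediate early genes 12 were at least 2-fold higher and 0 lower (median 0.84; WT 13 of 32 higher), with egr1 at 596 and 261 CPM, fosab at 3063 and 1460 CPM and junba at 1218 and 490 CPM. As in cardiomyocyte-like cells, the part of the digestion in these genes was not tested. Genes of antigen presentation, 5 of 17 higher and 0 lower, included cd74a at 544 and 80.5 CPM. It gave 4.02 UMIs per cell at 7 dpa and 0.973 at 3 dpa, against 2.22 and 0.273 per erythrocyte-like cell, whose depth was lower, so how much of it is background was not tested.

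**Figure D4:**
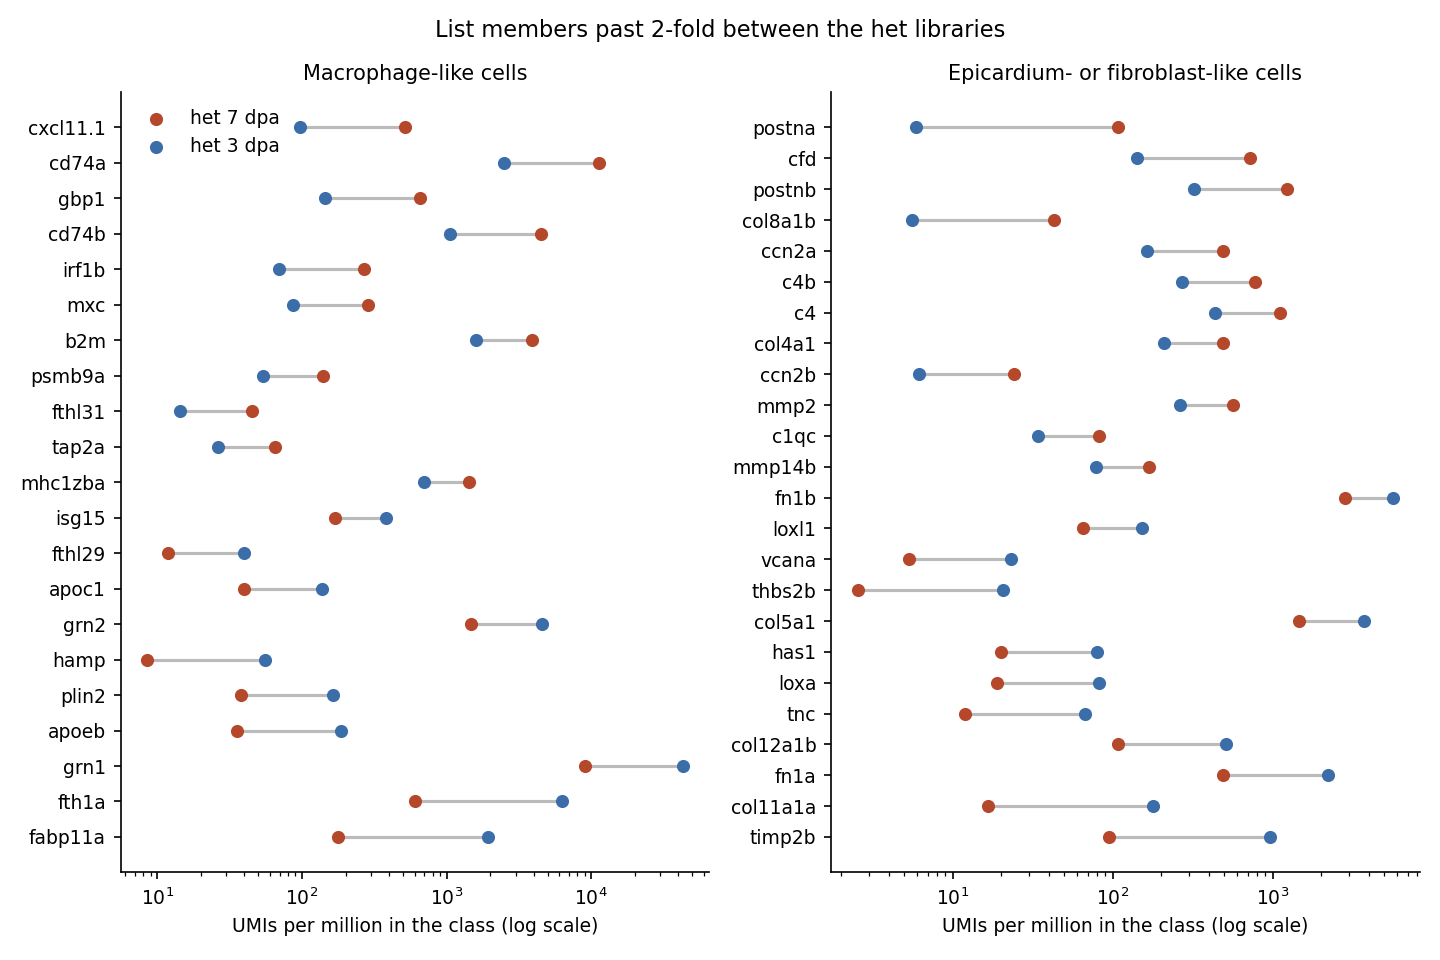
Level in CPM (log axis) at 7 dpa (red) and 3 dpa (blue) of het, joined by a line, for list members past 2-fold in macrophage-like cells (antigen presentation, interferon, lysosome and lipid, heme and iron) and in epicardial and fibroblast-like cells (wound matrix, collagens, complement, proteases). In macrophage-like cells cd74a lies at 11287 CPM at 7 dpa and 2505 CPM at 3 dpa, and in the other class postna lies at 108 and 5.87 CPM and tnc at 12 and 67.7 CPM.

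In endothelial-like cells 4 of 14 interferon genes were at least 2-fold lower at 7 dpa, and serpinh1b and gpr182 were among the highest genes. Of 4987 genes measured, 132 were at least 2-fold higher (2.65%) and 108 at least 2-fold lower (2.17%), on sums of 4605898 UMIs at 7 dpa and 907332 at 3 dpa. Under TMM the calls were 199 higher and 55 lower, and the share of higher ones was 78.3%, against 55% on the CPM scale. Of the higher genes 22 were 2-fold higher in WT too, 17.1% of the het list and 17.9% of the WT list, and of the lower ones 47, 43.9% of the het list and 16.0% of the WT list.

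The ubiquitin-like isg15 had 26.5 CPM at 7 dpa and 237 CPM at 3 dpa, a ratio of 0.112 (0.0888 to 0.140; WT 48.2 and 481). The antiviral rsad2 had 8.47 and 67.2 CPM (WT 12.4 and 285), rnf213b, a large ubiquitin ligase, 23.7 and 143 CPM (WT 37.9 and 241), and the signal transducer stat2 43.4 and 202 CPM. Of 14 interferon genes 4 were at least 2-fold lower and 0 higher (median -0.36 against 0.01 over all genes). Set against background per cell, isg15 gave 0.0973 UMIs per endothelial-like cell at 7 dpa and 0.597 at 3 dpa, and 0.227 and 0.220 per erythrocyte-like cell. For stat2 these means were 0.159 and 0.508 per endothelial-like cell, and 0.137 and 0.231 per erythrocyte-like cell. The endothelial-like levels at 3 dpa thus lay above those of erythrocyte-like cells, while at 7 dpa isg15 lay below and stat2 close to them, at median depths of 2929.5 and 2029 UMIs in endothelial-like and 1373 and 695 UMIs in erythrocyte-like cells. The prostaglandin-degrading hpgd, 6.51 and 59.5 CPM, ifi45, 38.0 and 214 CPM, and aste1a, 36.9 and 307 CPM, were the other named lower genes.

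Higher in endothelial-like cells was serpinh1b, the collagen chaperone Hsp47, with 116 CPM at 7 dpa and 11 CPM at 3 dpa, a ratio of 10.5 (5.65 to 22.0; WT 66.0 and 16.6). Of 11 wound matrix genes 5 were at least 2-fold higher and 0 lower (median 0.60), with ccn2a at 149 and 22.0 CPM (WT 48.2 and 40.8), the crosslinking oxidase loxl2a at 84.9 and 19.8 CPM and thrombospondin thbs1b at 42.8 and 8.82 CPM. The smaller 3 dpa sum let genes high at 7 dpa be measured more readily. Counts of higher list members in this class are thus not read as changes of the lists. Of 11 collagens 2 were at least 2-fold higher, col1a1a with 163 and 72.7 CPM and col1a1b with 205 and 88.2 CPM. Another 1 was lower, col6a4a with 65.4 and 164 CPM (median 0.26). Epicardial and fibroblast markers summed to 914 CPM at 7 dpa and 862 CPM at 3 dpa in this class. How much of these collagens, or of the thrombocyte marker thbs1b, is background was not tested. Among 17 regeneration factors 3 were higher and 0 lower (median 0.47), bmp6 standing at 119 and 37.5 CPM (WT 60.1 and 73.9). The other named higher genes were dap1b, 556 and 62.8 CPM, and gpr182, an atypical chemokine receptor of sinusoidal and lymphatic endothelium, 146 and 24.2 CPM (WT 82.3 and 39), besides fkbp3 and rps29, which were low in the 3 dpa het library alone.

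Of 27 genes of endothelial identity and signalling 3 were at least 2-fold higher and 1 lower (median 0.13). The flow-sensitive factor klf2a had 357 CPM at 7 dpa and 168 CPM at 3 dpa, and the diaphragm protein plvapa 202 and 69.4 CPM (WT 112 and 186). The apelin receptor aplnrb, which guides sprouting, had 43.9 and 112 CPM. The ETS factor etv2, which acts under npas4l in the embryo, had 43.4 and 86.0 CPM, a ratio of 0.505 (0.387 to 0.665; WT 26.1 and 105), and did not pass 2-fold on the log2 scale. Notch genes stayed near level, with notch1b at 342 and 406 CPM and its ligand dll4 at 350 and 378 CPM. The gene aldh1a2, which endocardium makes after injury, was higher at 153 and 97.0 CPM but did not pass 2-fold.

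Mural-like cells, 271 at 7 dpa and 75 at 3 dpa, had 211 of 1748 genes at least 2-fold higher (12.1%) and 146 at least 2-fold lower (8.35%). The sum held 1020333 UMIs at 7 dpa and 364639 at 3 dpa, so many of these calls rest on few counts. The smaller 3 dpa sum also leans list counts to the higher side. Under TMM 80.8% of calls were higher ones, against 59.1% on the CPM scale. Immediate early genes were higher in 12 of 29 and lower in 0 (median 0.89 against 0.10 over all genes), with nr4a3 at 227 CPM at 7 dpa and 19.2 CPM at 3 dpa, a ratio of 11.8 (5.66 to 29.8), and atf3 at 1888 and 463 CPM. The chemokine cxcl12b, which guides coronary vessel growth in fish, had 2322 and 743 CPM, and the neutrophil attractant cxcl8a 99.0 and 11 CPM. Glycolytic genes were lower in 8 of 14 and higher in 0 (median -1.44), with gapdhs at 507 and 2545 CPM and eno1a at 133 and 598 CPM. The named lower genes were calr3b, 29.4 and 378 CPM, hmgb3a, 16.7 and 252 CPM, and ifi45, 46.1 and 433 CPM. The complement gene cfd had 1181 and 4062 CPM, opposite to its direction in epicardial and fibroblast-like cells.

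In thrombocyte-like cells, 433 at 7 dpa and 89 at 3 dpa, 184 of 1393 genes were at least 2-fold higher (13.2%) and 56 at least 2-fold lower (4.02%), on 737281 and 167551 UMIs. Under TMM these counts were 298 and 20, and the share of higher ones 93.7%, against 76.7%. The smaller 3 dpa sum leans list counts in this class to the higher side. The chaperone and regeneration counts that follow are thus not read as changes of those lists. Chaperones were higher in 7 of 12 and lower in 0 (median 1.60 against 0.21), with dnajb1b at 345 CPM at 7 dpa and 41.8 CPM at 3 dpa and hsp70.2 at 709 and 209 CPM. In WT the same list had 1 higher and 4 lower of 11 (median -0.94), with dnajb1b at 182 and 928 CPM. Of 8 regeneration factors 5 were at least 2-fold higher and 0 lower (median 1.06): the apelin ligand apln, for instance, had 4195 and 2023 CPM, the EGF-like hbegfb 4846 and 2316 CPM (WT 2416 and 3613), bmp6 620 and 143 CPM, and the PDGF ligand pdgfba 73.2 and 11.9 CPM. The gelatinase mmp9 had 736 and 191 CPM (WT 309 and 9.76). The platelet receptor part gp9 had 104 and 304 CPM, but it is among the markers that define the class and is not read. The nucleosome-binding hmgn2 had 719 and 5909 CPM, a ratio of 0.122 (0.109 to 0.135), against 668 and 840 CPM in WT. TCIM (1 of many), with 74.6 and 448 CPM, and the dynein light chain dynll2b, with 178 and 597 CPM, were the other named lower genes. Higher were slc40a1, which gave 53 UMIs at 7 dpa and 0 at 3 dpa, and myl9a, with 159 and 11.9 CPM. For slc40a1 this is 4.01-fold against a floor of 3 UMIs in the class sum, and the exact interval starts at 3.15-fold. The myl9a value rests on 2 UMIs at 3 dpa (WT 84.4 and 39.1 CPM), and that gene was low in the 3 dpa het library alone.

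Erythrocyte-like cells had 33 of 473 genes at least 2-fold higher (6.98%) and 78 at least 2-fold lower (16.5%). Hemoglobin genes summed to 451208 CPM at 7 dpa and 279350 CPM at 3 dpa, and these genes are among those that define the class. Under TMM the calls were 96 higher and 21 lower, so that 82.1% were higher ones, against 29.7% on the CPM scale. Of 13 sarcomere genes 0 were higher and 9 lower (median -1.15; 0 and 0 under TMM, median -0.61), beside the lower cardiomyocyte background given above, and myoglobin mb had 1301 CPM at 7 dpa and 6053 CPM at 3 dpa. Respiratory genes such as atp5mc1, 105 and 439 CPM, and cox5ab, 55.4 and 239 CPM, were lower as well. The metal-binding mt2 had 21.5 and 267 CPM, and ppdpfa and ifi45 52.3 and 318 CPM and 33.9 and 188 CPM. Named higher genes were the keratin krt91, with 637 and 28.7 CPM (WT 19.6 and 10.2), and the inhibitor of bHLH factors id2a, with 109 and 19.1 CPM (WT 12.6 and 17.1), both of which stayed under 2-fold when likely doublets were left out, and the ribosomal genes rps29 and rpl38, low in the 3 dpa het library alone, and rpl37. Over all cells rpl37 stood at 4969 CPM at 7 dpa and 1869 CPM at 3 dpa, below the other 5 libraries (3284 to 5497) but by less than 2-fold from the lowest.

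Genes were called gained where they had at least 50 UMIs in at least 20 cells at 7 dpa and at most 3 UMIs at 3 dpa, and lost in the opposite case. This rule counts UMIs and does not use the 2-fold limit. In all cells 68 of the 15596 genes measured were gained and 3 lost, and 34 of the gained ones were unnamed clones. The 7 dpa library held more UMIs, 115616806 against 62308341, which makes gains easier to count than losses. Lost was kif9, a kinesin motor gene, with 1 UMI at 7 dpa and 868 UMIs in 262 cells at 3 dpa, a CPM ratio of 0.000621 (1.57e-05 to 0.00347). Macrophage-like cells gave 1 and 510 of these UMIs, and WT stood at 0 CPM at 7 dpa and 2.00 CPM at 3 dpa. jac8 was lost with 2 and 81 UMIs.

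Epicardial and fibroblast-like cells lost 17 genes and gained 34, of 10270 measured. Lost in them were ddc, an amino acid decarboxylase, with 2 UMIs at 7 dpa and 243 UMIs in 65 cells at 3 dpa (WT 0.241 and 31.4 CPM), and cell division genes such as trip13 with 2 and 221 UMIs, foxm1, which drives mitotic genes, with 2 and 78 UMIs, the replication starter mcm10 with 1 and 57 UMIs, and kif14 with 3 and 104 UMIs. Gained in them were mylkb, a myosin light chain kinase, with 441 UMIs in 70 cells at 7 dpa and 2 UMIs at 3 dpa (WT 17.3 and 0.262 CPM), and FAM180A with 92 and 0 UMIs.

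Several gained genes came from few cells of small classes. defbl1, a beta-defensin gene, had 1022 UMIs in 36 cells at 7 dpa and 0 at 3 dpa, of which 635 lay in 1 glial-like cell. foxd3, a neural crest and glial gene, had 130 UMIs in 38 cells and 0 at 3 dpa, and dlx5a 533 and 0 UMIs. foxp3a, the regulatory T cell factor, had 59 UMIs at 7 dpa and 2 at 3 dpa, 36 of them in T and NK-like cells at 7 dpa, and ighd, an immunoglobulin heavy chain, 68 and 1. Such gains went with more glial-like, T and NK-like and B-like cells at 7 dpa. In endothelial-like cells lyve1a, a lymphatic marker, had 156 UMIs in 28 cells at 7 dpa and 2 UMIs at 3 dpa, 33.9 and 2.2 CPM, but 8.05 and 146 CPM in WT.

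**Figure D5:**
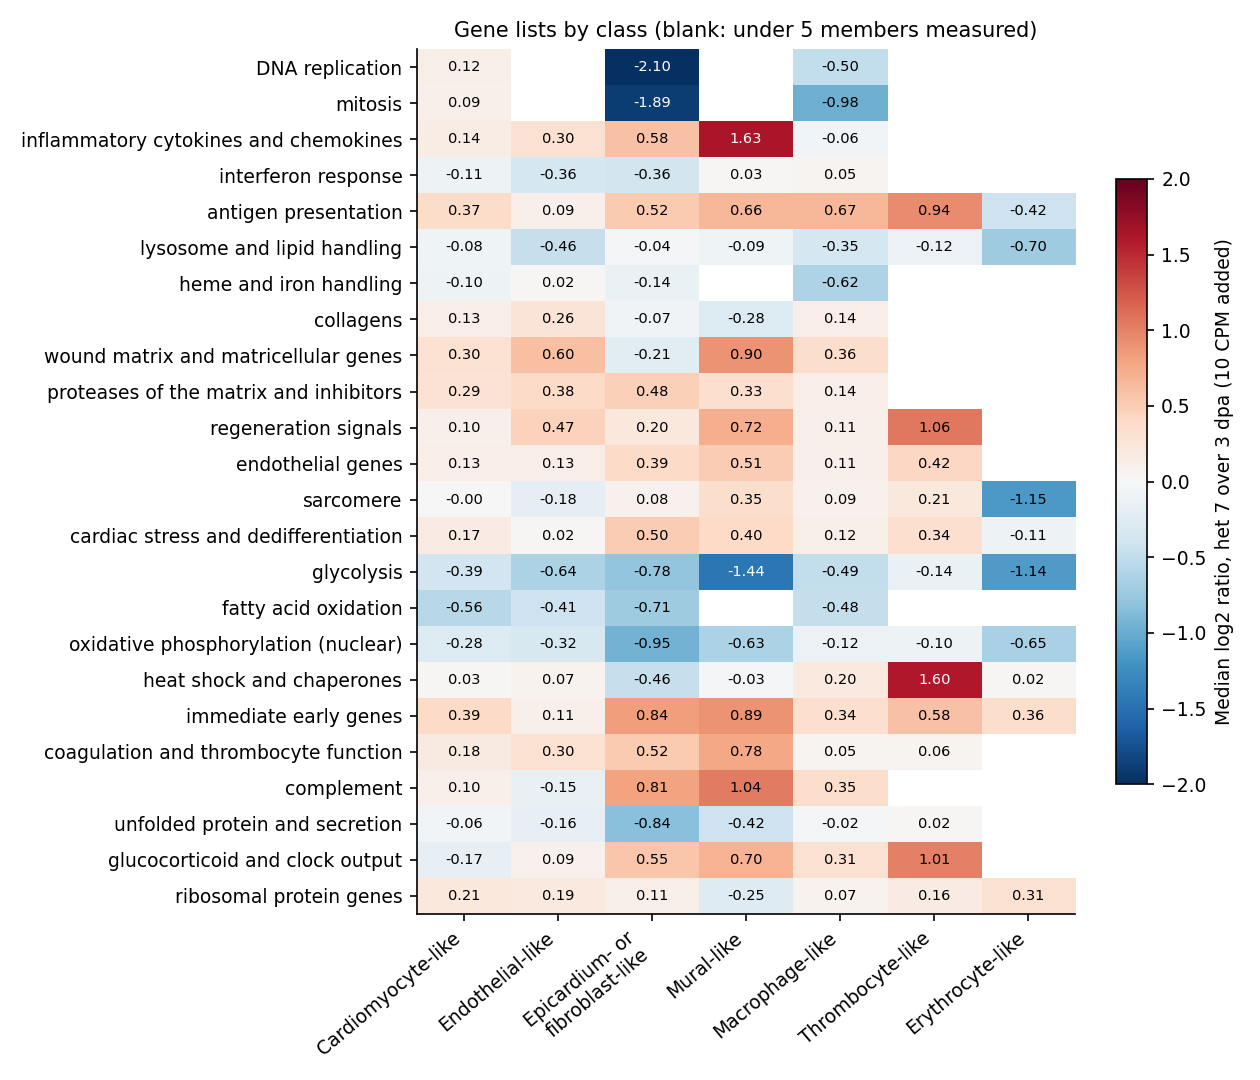
Median log2 ratio of het 7 dpa over 3 dpa (10 CPM added) of each gene list in each class, with blue for lower, red for higher, colour clipped at 2 either way, and blanks where under 5 members were measured. DNA replication and mitosis are darkest blue in epicardial and fibroblast-like cells, at -2.10 and -1.89. Heat shock genes stand at 1.60 in thrombocyte-like cells, where the smaller 3 dpa sum leans list values to the higher side.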

How the data were processed

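Per the labels' protocols, 3' droplet libraries were made from sorted ventricular cells. The submitters' processing notes name Cell Ranger 3.0.2, Seurat 3.1.4 and build GRCz11. The authors deposited unnormalised UMI counts for each gene in each barcode, and how barcodes were called cells is not given in the sources used here. Of 27771 identifiers, those sharing a symbol (528 symbols) were summed.

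Counts were summed over all cells and per class, scaled to CPM, and compared as log2 ratios with 10 CPM added. Ratios of plain CPM carry exact conditional binomial intervals and shares exact Clopper-Pearson intervals, at 95%, for counting error only. No test was run. Genes needed 50 UMIs in either library and a UMI in 20 cells of the library where they were higher. Class limits were set per class as a share of UMIs from markers (from 0.1% for B-like to 10% for erythrocyte-like cells).

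Named genes were the 10 highest and 10 lowest in all cells and 6 of each per class (3 where a library had under 200 cells). They had to be seen in 20 cells, without class markers, unnamed clones, or genes under 0.10 of their highest class level. This rule skipped 18 clone symbols among the higher and 5 among the lower genes. Other genes named are members of 24 lists, or gained or lost genes, and those described within gained genes and within f13a1a.1-rich cells were chosen after their values were seen. The members, lists and rules were chosen with earlier results of these data known. List counts stand beside the share of all genes called.

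Doublets were scored with Scrublet (scanpy 1.11.5) and kept in the main values. DESeq2 1.42.0 and edgeR 4.0.16 gave scaling factors only (R 4.3.3). Other steps used Python 3.11.15, numpy 2.4.6, scipy 1.17.1, pandas 2.3.3 and matplotlib 3.10.9. The ratios and intervals were tested on simulated counts drawn independently for each gene. Such counts lack the clumping of UMIs in few cells seen for f13a1a.1, so intervals too narrow for that reason could not show. The planned search of promoters for motifs was not run, since no promoter table was used here.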

Additional observations from a re-analysis of the deposited data

Results flagged for a closer look

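A total of 8 values of named genes went opposite ways in het and WT between 7 and 3 dpa with both counting intervals clear of a ratio of 1. The difference between genotypes was not tested, with 1 library per group. In all cells the log2 ratio of ccl34b.8 was 2.72 in het and -0.24 in WT, and that of NDUFB1 2.44 in het and -0.39 in WT. In cardiomyocyte-like cells NDUFB1 stood at 2.94 in het and -0.43 in WT. In macrophage-like cells ccl34b.8 stood at 3.31 in het and -0.25 in WT, and in endothelial-like cells rps29 at 2.26 in het and -0.29 in WT. In erythrocyte-like cells the log2 ratios were 2.19 in het and -0.85 in WT for rps29, 2.12 and -0.63 for rpl38, and 1.64 and -0.30 for rpl37. Of these genes ccl34b.8, NDUFB1, rps29 and rpl38 were low in the 3 dpa het library alone. Another 3 values of named genes had opposite signs with a WT interval that spans 1: fkbp3 in all cells and in cardiomyocyte-like cells, and id2a in erythrocyte-like cells.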

How the results depend on the processing

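Each value rests on 1 pooled library per day, so animal, library and batch cannot be told apart from the day. No paired analysis was possible because each group has 1 library. The 7 dpa library was deeper in total, and small classes at 3 dpa (75 mural-like, 89 thrombocyte-like cells) limit what could be counted. Of 808 log2 ratios of named genes under the alternatives, 801 kept their direction and 2-fold side, 7 dropped under 2-fold and 0 reversed. Of the counts and shares, 210 moved little, 70 moved and 2 reversed.

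With at least 1000 UMIs per cell, erythrocyte-like calls were 101 higher and 9 lower, and log2 ratios of shares were 0.45 for epicardial and fibroblast-like (0.61 in all kept cells), -0.18 for macrophage-like (-0.01) and 0.56 for erythrocyte-like cells (-0.82, reversed). With cells thinned to 1000 UMIs the shares gave -0.74 for cardiomyocyte-like, -0.18 for macrophage-like and 0.59 for erythrocyte-like cells (reversed). With unclassed cells down to 0.8 times the class limit counted in, chosen after seeing the data, the log2 ratios of shares were 0.87 for thrombocyte-like (1.63 in the classed cells) and -1.10 for erythrocyte-like cells, and -1.10 for erythrocyte-like cells with 2 marker genes required too. TMM gave 199 higher and 55 lower in endothelial-like, 743 lower in epicardial and fibroblast-like, 357 and 85 in mural-like, 298 and 20 in thrombocyte-like, and 96 and 21 in erythrocyte-like cells. Median-of-ratios scaling gave 59 lower in endothelial-like, 360 and 85 in mural-like, 287 and 21 in thrombocyte-like, and 100 and 16 in erythrocyte-like cells.

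With 1 CPM added, higher and lower calls were 706 and 687 in all cells, 621 and 345 in cardiomyocyte-like, 344 and 231 in endothelial-like, 852 and 2297 in epicardial and fibroblast-like, and 660 and 531 in macrophage-like cells. With 50 CPM added they were 70 and 39 in all cells, 70 and 18 in cardiomyocyte-like, 30 and 38 in endothelial-like, 103 and 280 in epicardial and fibroblast-like, 90 and 89 in mural-like, 86 and 39 in macrophage-like, and 82 and 32 in thrombocyte-like cells. A mean over cells gave 585 lower in epicardial and fibroblast-like cells.

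Without a filter on low counts there were 171 lower in endothelial-like, 518 and 885 in mural-like, 791 and 743 in thrombocyte-like, and 209 and 570 in erythrocyte-like cells. With at least 200 UMIs per gene there were 75 and 48 in endothelial-like, 73 and 25 in mural-like, 56 and 16 in thrombocyte-like, and 15 and 24 in erythrocyte-like cells. The cell-cycle share with at least 3 UMIs gave log2 ratios of 1.51 in cardiomyocyte-like, -4.78 in epicardial and fibroblast-like and -4.58 in thrombocyte-like cells (0.61, -3.82 and -1.48 with 2 UMIs). In that order they rest on 12 cells at 7 dpa and 4 at 3 dpa, on 11 and 127, and on only 1 and 4. Without thinning the cell-cycle log2 ratios were -1.50 in epicardial and fibroblast-like and -0.40 in macrophage-like cells (-1.12 with thinning).

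No count or share moved with Scrublet doublets left out, 3 marker genes required, mitochondrial genes out of the total, shared barcodes left out, classed cells as the denominator, or the genes low in the 3 dpa het library left out, the last chosen after seeing the data. The cause of these moves was not tested.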

Other observations

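The clock genes per2, tefa and hlfa were at least 2-fold higher at 7 dpa in epicardial and fibroblast-like cells. The hour at which hearts were taken is not given in the labels, and its part in these values was not tested. Of 26 genes of glucocorticoid and clock output, 3 were at least 2-fold higher and 0 lower (median log2 ratio 0.55, against -0.19 over all genes of the class), and in WT 4 of 26 were higher (median 0.64). The clock repressor per2 had 25.3 CPM at 7 dpa and 6.88 CPM at 3 dpa (WT 31.6 and 11.9). The PAR bZIP factors, which carry clock output, had 68.6 and 27.6 CPM for tefa (WT 56.5 and 33.3) and 31.5 and 7.79 CPM for hlfa (WT 33.6 and 18.1). In cardiomyocyte-like cells 0 of 26 genes of this list were higher and 1 lower (median -0.17). In thrombocyte-like cells 5 of 10 were higher and 0 lower (median 1.01). Over all genes of that class 13.2% were higher and 4.02% lower (median 0.21, or 0.49 under TMM). The count rests on few UMIs at 3 dpa: ciarta had 142 UMIs at 7 dpa and 9 UMIs at 3 dpa. The smaller 3 dpa sum leans list counts in this class to the higher side, so this count is not read as a change of clock genes. The glucocorticoid-induced leucine zipper gene tsc22d3 had 271 CPM at 7 dpa and 129 CPM at 3 dpa in macrophage-like cells (WT 404 and 153).

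Genes of cardiac stress and dedifferentiation were near level in cardiomyocyte-like cells, where 1 of 28 was at least 2-fold higher and 1 lower (median 0.17). The cardiac factors tbx20, with 29.9 CPM at 7 dpa and 59.4 CPM at 3 dpa, and tbx5a, with 32.6 and 51.5 CPM, did not pass 2-fold. The myosin heavy chain myh7 had 1948 and 1321 CPM, likewise within 2-fold.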
